A study of Mus musculus with 8 samples.

Results

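The Hedgehog genes described here are 9 genes chosen by name as ligand, receptors and effectors of one signalling pathway, out of the 54307 genes in the deposited table of gene counts. They are the ligand gene *Shh*, the receptor genes *Ptch1*, *Hhip* and *Boc*, the genes *Smo* and *Sufu* that carry or hold back the signal inside the cell, and the transcription factor genes *Gli1*, *Gli2* and *Gli3*. All 9 were matched by symbol, and all 9 were among the 17669 genes with enough reads to test.

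In Hedgehog signalling, secreted Sonic hedgehog binds Patched1, which otherwise holds Smoothened inactive. Active Smoothened, at the primary cilium, frees the Gli factors from Sufu and from processing into repressors, and Gli activators then raise transcription of *Gli1*, *Ptch1* and *Hhip*, so that transcripts of these genes are commonly read as a sign of pathway activity. In the adult ventricular-subventricular zone (V-SVZ), the germinal layer beside the lateral ventricles, the pathway is known for its activity in ventral stem cells, where it helps set which olfactory bulb interneurons they make.

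The study asked how LRIG1, a membrane protein that restrains growth factor receptors, acts in adult neural stem cells, and it sequenced polyA RNA from tissue dissected around the ventricles of 4 *Lrig1* KO and 4 WT animals. All the mice were 8 weeks old and on one 129 strain background, given as 129-Elite in the methods. KO mice were homozygous for CreERT2 knocked into exon 1 of *Lrig1*, a constitutive loss, and WT mice were littermates with both alleles intact, with no other agent or allele named for either group. The KO group held 2 female and 2 male mice and the WT group 3 female and 1 male, and each library came from 1 hemisphere of 1 mouse, a dissected block of mixed cells.

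The gene counts of a mouse summed to between 47887437 and 74482334. *Lrig1* lay between 13.5 and 45.6 CPM (read counts scaled to library size, here with edgeR's TMM factors) in WT and between 1.17 and 4.15 CPM in KO, in the direction of the labels in every mouse. Its log2 fold change of -3.80 (SE 0.52) had an adjusted p of 0.286 (edgeR, Benjamini-Hochberg), so the test used below did not call the targeted gene itself. The paper, which used DESeq2, reported *Lrig1* as its most significantly down-regulated gene. Markers of the labelled tissue were present in every library: summed CPM of 6 stem cell markers of the V-SVZ lay between 730 and 993, of 7 neuroblast markers between 111 and 160 and of 6 ependymal markers between 26.4 and 60.4. Most of the stem cell sum was *Slc1a3*, which parenchymal astrocytes also express, at 581 to 826 CPM, while *Nes* was at 11.8 to 19.0 and *Thbs4* at 5.61 to 11.9 CPM. Among the neuroblast markers, *Dcx* was at 24.6 to 33.2, *Dlx1* at 21.4 to 48.3 and *Sp9* at 17.6 to 40.1 CPM. *Sp9* and *Dlx5* were lowest in WT replicate 2, which also had the lowest summed CPM of striatal medium spiny neuron markers. How much of this list came from neuroblasts was not tested. The libraries also held neighbouring regions in unequal amounts. The summed CPM of 6 markers of cortical excitatory neurons was 346, 1777, 78.8 and 242 in WT replicates 1 to 4 and 466, 62.9, 850 and 41.6 in KO replicates 1 to 4. That of 6 hypothalamic peptide genes was 5.22, 1.13, 4.33 and 52.2 in WT and 4.37, 253, 4.83 and 31.4 in KO. WT replicate 2 thus stood apart by its cortical markers and KO replicate 2 by its hypothalamic ones, and their part in the values below was not tested beyond leaving each mouse out.

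*Lrig1* KO and WT mice were compared for each Hedgehog gene to ask whether the pathway's transcripts differed when *Lrig1* was lost. Of the 9 genes, 0 differed at an adjusted p under 0.1 and 0 at an unadjusted p under 0.05 (edgeR's quasi-likelihood test, Benjamini-Hochberg adjustment over 17669 genes), and 0 passed with DESeq2. Over all genes tested, 0.00566% passed the first threshold and 1.88% the second. The 2 genotypes overlapped for all 9 Hedgehog genes, while 1.53% of all genes tested had genotypes that did not overlap. Log2 fold changes, KO over WT, were above 0 for 3 and below 0 for 6 of the 9, with a median of -0.08 against -0.0009 over all genes tested. With sex as a covariate, 0 of the 9 passed. The log2 fold change was then 0.23 for *Ptch1* (0.03 without the covariate), 0.27 for *Gli1* (0.05), -0.07 for *Hhip* (-0.14), -0.04 for *Sufu* (-0.08) and 0.0085 for *Smo* (-0.08), with adjusted p between 0.85 and 0.996 for these 5 (edgeR, Benjamini-Hochberg). In bulk tissue, fewer cells that express a gene and less of its RNA in each cell cannot be told apart.

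**Figure D1:**
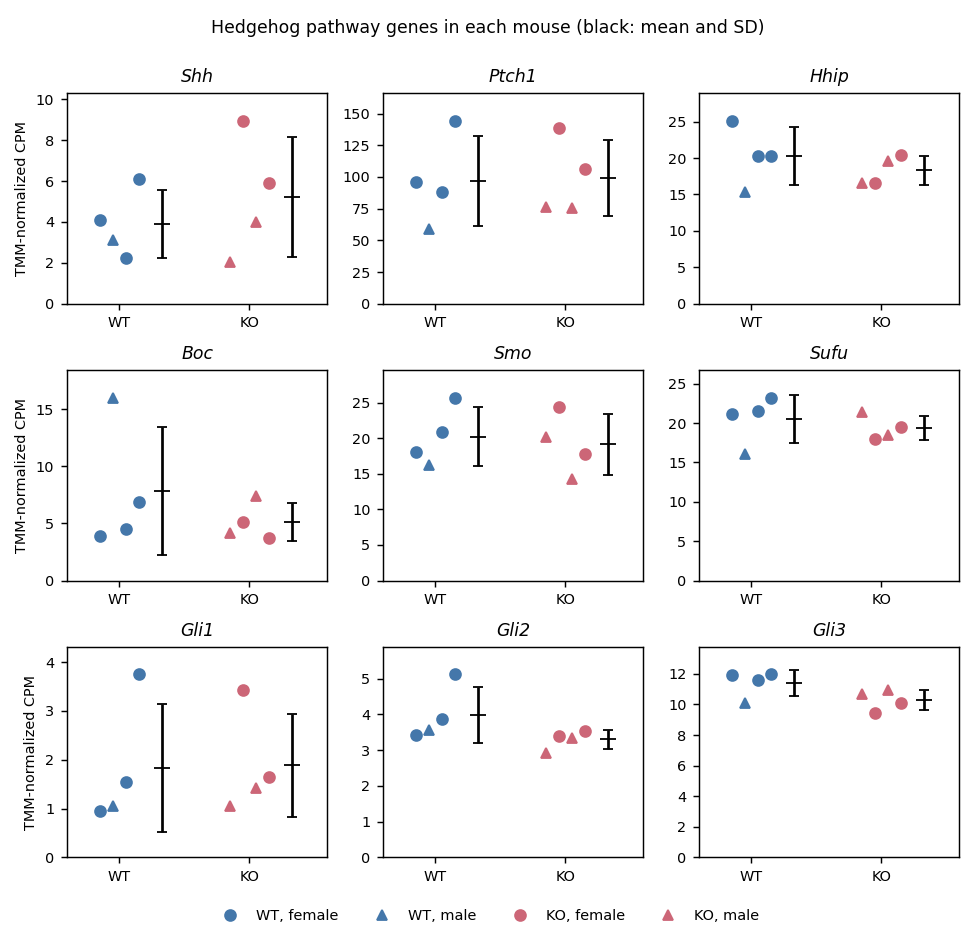
Level of each of the 9 Hedgehog genes in each mouse, in TMM-normalized CPM, with WT and KO side by side, circles for female and triangles for male mice, and the mean with its SD in black. WT and KO points overlap in every panel, and for *Boc* 1 male WT mouse at 16.0 CPM lies above the other 7.

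*Shh*, the ligand, had few reads, between 104 and 529 estimated counts per mouse. WT replicates 1 to 4 held 4.12, 3.11, 2.26 and 6.10 CPM, and KO replicates 1 to 4 held 2.03, 8.95, 3.99 and 5.93 CPM. The highest value, in KO replicate 2, and the lowest, in KO replicate 1, both came from KO mice, and every WT value lay between them. Means were 3.90 ± 1.65 CPM for WT and 5.23 ± 2.95 CPM for KO (SD, n = 4 each), and the log2 fold change was 0.42 (SE 0.45, edgeR, adjusted p = 1.0). The 95% interval ran from -0.59 to 1.44. Without KO replicate 2 the log2 fold change was 0.03, and without WT replicate 4 it was 0.72.

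*Ptch1*, whose product is the receptor that Sonic hedgehog inhibits, had by far the most reads of the 9, between 3586 and 8183 per mouse. The level was 96.4, 58.7, 88.2 and 144 CPM for WT replicates 1 to 4, against 75.9, 139, 75.5 and 106 CPM for KO replicates 1 to 4, an order of replicates kept below. WT replicate 4 was the highest WT mouse and KO replicate 2 the highest KO mouse, and all 4 KO values lay within the WT range. Means were 96.9 ± 35.6 CPM for WT and 99.0 ± 30.0 CPM for KO (SD, n = 4 each), and the log2 fold change was 0.03 with a 95% interval from -0.62 to 0.68 (edgeR, adjusted p = 1.0). It was below 0, at -0.17, -0.15, -0.01 and -0.0035, without KO replicate 2, WT replicate 2, WT replicate 3 or KO replicate 4, and 0.29 without WT replicate 4.

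*Hhip*, which encodes a membrane protein that binds and sequesters Hedgehog ligands, varied less. WT mice had 25.1, 15.3, 20.2 and 20.3 CPM of it, and KO mice 16.6, 16.6, 19.6 and 20.4 CPM. All 4 KO values lay within the WT range, and the log2 fold change was -0.14 (SE 0.15, edgeR, adjusted p = 1.0), with a 95% interval from -0.49 to 0.20. It was -0.02 without WT replicate 1 and -0.26 without WT replicate 2.

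*Ptch1* and *Hhip* are the receptor genes whose transcription Gli factors are known to raise, so the bases before their RefSeq starts (build GRCm38.p6) are shown 5′ to 3′ on the strand of the gene. Capitals mark the 6-base core CCACCC of the Gli binding motif where it occurs, on either strand. The *Ptch1* stretch is chr13:63565736-63565985 on the minus strand, just before the annotated start of transcript *Ptch1-201*, and holds no copy. The *Hhip* stretch is chr8:80058009-80058258 on the minus strand, just before the start of *Hhip-201*, and holds 1 copy that begins 158 bases before the start.
Ptch1: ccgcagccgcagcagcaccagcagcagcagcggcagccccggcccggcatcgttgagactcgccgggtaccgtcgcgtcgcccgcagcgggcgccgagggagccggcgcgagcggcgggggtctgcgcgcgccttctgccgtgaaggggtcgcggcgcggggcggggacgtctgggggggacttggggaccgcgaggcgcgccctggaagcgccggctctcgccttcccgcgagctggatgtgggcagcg
Hhip: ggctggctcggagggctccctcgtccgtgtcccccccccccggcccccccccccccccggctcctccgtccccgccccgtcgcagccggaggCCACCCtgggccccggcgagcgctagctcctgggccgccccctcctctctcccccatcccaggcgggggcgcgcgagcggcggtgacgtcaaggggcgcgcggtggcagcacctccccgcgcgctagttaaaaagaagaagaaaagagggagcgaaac
The RefSeq table held windows for 6 of the 9 genes, with *Smo*, *Sufu*, *Gli2* and *Gli3* as the others. The 9-base motif GACCACCCA, searched on both strands, was in 0 of these 6 windows of 300 bases and in 0.253% of all 32851. The core, which lies within the 9-base motif, was in the 250 bases upstream of the start in *Hhip*, *Smo*, *Gli2* (2 copies) and *Gli3*. It was in neither *Ptch1* nor *Sufu*. Of all windows, 31.5% held it, counted over the longer 300 bases. The *Smo* and *Gli3* windows lie at the starts of *Smo-202* and *Gli3-203*, both annotated with a retained intron. These held 7.29% and 6.98% of the TPM of their gene, a length-scaled measure described below. The *Gli3* stretch overlaps 1 annotated exon. A match in these letters is not a binding site, and no match says only that these letters are not in this window.

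*Boc* encodes a co-receptor for Hedgehog ligands, and its difference rested on 1 mouse. WT mice had 3.94, 16.0, 4.48 and 6.83 CPM of *Boc*, and KO mice 4.18, 5.16, 7.40 and 3.69 CPM. WT replicate 2, the male WT mouse and the one with the most cortical marker reads, was higher than any other mouse, and the other 7 lay between 3.69 and 7.40 CPM. Its log2 fold change of -0.61 (SE 0.45, edgeR, adjusted p = 1.0) was the largest in size among the 9, and it was 0.01 without WT replicate 2. Over the 8 mice, the marker lists closest to *Boc* were striatal medium spiny neurons, with a Pearson's r of -0.88, and the dorsal wall, with 0.84. Cholinergic neurons, with -0.79, GABAergic interneurons, with 0.78, and cortical excitatory neurons, with 0.73, came next. Spearman's rho was -0.71, 0.71, -0.45, 0.67 and 0.62 in this order. None of these lists passed after adjustment (adjusted p = 0.105, 0.123, 0.269, 0.174 and 0.209 for r and 0.373, 0.373, 0.665, 0.449 and 0.518 for rho, exact permutation over pairings, Benjamini-Hochberg over 162 pairs). With the 2 mice farthest from the median of each list left out, WT replicate 2 among them in each case, r was -0.72, 0.45, 0.30, 0.68 and 0.30. The r with cholinergic neurons thus changed direction. Among the dorsal wall markers, *Emx1* was at 17.5 CPM in WT replicate 2 and 6.30 in KO replicate 3, the mice with the most cortical marker reads. In the other mice it was at 0.347 to 2.34 CPM, while *Pax6* stayed between 7.06 and 9.54 CPM over all mice. The dorsal wall list is therefore not separate from the cortical one here. Whether the cortical reads account for the *Boc* value was not tested.

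*Smo* encodes the receptor-like protein that passes the signal on. It stood at 18.0, 16.3, 20.9 and 25.7 CPM for WT and 20.1, 24.4, 14.2 and 17.8 CPM for KO, with 3 of the 4 KO values inside the WT range. Its log2 fold change was -0.08 with a 95% interval from -0.51 to 0.35 (edgeR, adjusted p = 1.0). *Sufu*, a negative regulator that binds Gli proteins, was steadier, at 21.2, 16.1, 21.5 and 23.2 CPM for WT against 21.4, 18.0, 18.5 and 19.5 CPM for KO. Every KO value lay within the WT range, and the log2 fold change was also -0.08, with a narrower interval from -0.36 to 0.19 (edgeR, adjusted p = 1.0). It was -0.02 without WT replicate 4 and -0.18 without WT replicate 2.

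*Gli1*, an activator whose own transcription follows the signal, had the fewest reads of the 9, with 53 to 203 estimated counts per mouse. WT mice had 0.953, 1.05, 1.53 and 3.75 CPM, against 1.05, 3.44, 1.42 and 1.64 CPM for KO mice. As for *Ptch1*, WT replicate 4 and KO replicate 2 were the high mice, and the other 6 lay between 0.953 and 1.64 CPM. Its log2 fold change was 0.05 (SE 0.51, edgeR, adjusted p = 1.0). Its direction turned with single mice: it was -0.40 without KO replicate 2, -0.16, -0.14 and -0.02 without WT replicates 1, 2 and 3, and 0.68 without WT replicate 4.

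*Gli2*, the main activator in many tissues, and *Gli3*, largely a repressor when the signal is off, had the smallest unadjusted p of the 9. *Gli2* was at 3.42, 3.55, 3.86 and 5.12 CPM for WT and at 2.93, 3.40, 3.34 and 3.53 CPM for KO. Only KO replicate 4 was above the lowest WT mouse, and the other 3 KO mice were below all 4 WT mice. For *Gli2* the log2 fold change was -0.27 with a 95% interval from -0.62 to 0.08 (p = 0.116, adjusted p = 1.0, edgeR, and p = 0.0571 in a two-sided exact permutation test). *Gli3* was at 11.9, 10.1, 11.6 and 11.97 CPM for WT and at 10.7, 9.43, 11.0 and 10.1 CPM for KO. Apart from WT replicate 2, the WT mice were all above the KO mice. For *Gli3* it was -0.15 with a 95% interval from -0.36 to 0.07 (p = 0.153, adjusted p = 1.0, edgeR, and p = 0.0857 in a two-sided exact permutation test). The smallest p such a permutation of 4 against 4 mice can give is 0.0286, and without each mouse in turn *Gli2* stayed between -0.34 and -0.13 and *Gli3* between -0.20 and -0.11.

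**Figure D2:**
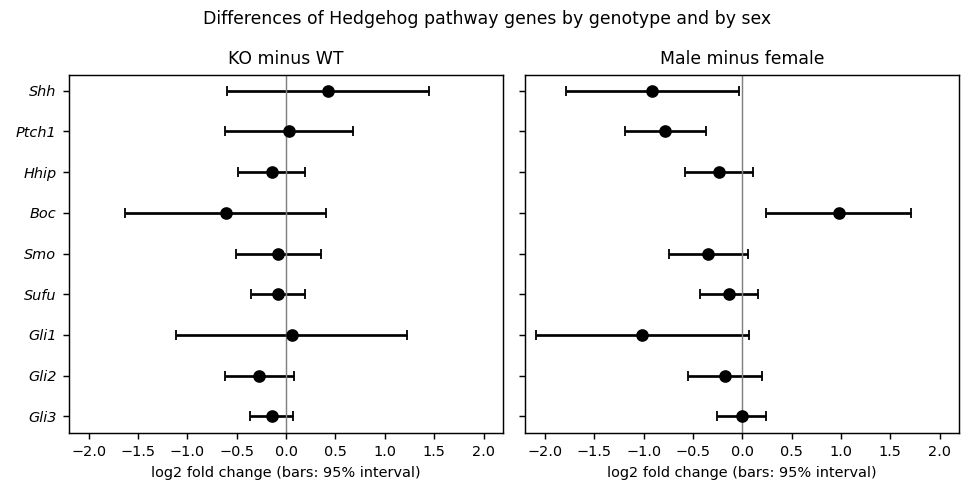
Log2 fold change of each Hedgehog gene with its 95% interval, KO minus WT on the left and male minus female on the right. On the left every interval holds 0. On the right *Ptch1*, at -0.78, runs from -1.19 to -0.37, *Shh* from -1.79 to -0.03 and *Boc* from 0.24 to 1.71. The intervals of the other genes on the right hold 0.

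The spread between mice of one genotype differed widely among the 9 genes. On the log2 CPM scale its SD was 0.80 for *Gli1*, 0.77 for *Shh* and 0.71 for *Boc*, larger than in 94.1%, 93.3% and 92.1% of all genes tested. *Ptch1* followed at 0.48, above 82.0% of genes. *Gli3* was the steadiest at 0.11, above 16.3%, and *Sufu*, *Gli2*, *Hhip* and *Smo* lay between 42.4% and 66.1%. *Gli1* and *Shh* had at most 203 and 529 counts per mouse, *Ptch1* had 3586 or more, and *Gli2*, with an SD above 47.8% of genes, had 150 to 252.

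The levels of the 9 genes were compared within each mouse by TPM, the deposited measure that scales reads by transcript length and library, summed over the transcripts of a gene. *Ptch1* was the highest at 18.8 ± 7.67 TPM (SD, n = 8), ahead of *Sufu* in 8 of 8 mice by 1.24 ± 0.46 on the log2 scale (adjusted p = 0.0208, two-sided exact permutation of signs, Benjamini-Hochberg over 8 neighbouring pairs). *Sufu* at 7.51 ± 0.90 TPM and *Smo* at 7.47 ± 1.71 TPM did not differ beyond their spread (adjusted p = 0.766, exact permutation, *Sufu* higher in 5 of 8 mice). *Smo* was above *Hhip*, at 3.28 ± 0.40 TPM, in 8 of 8 mice (adjusted p = 0.0208, exact permutation).

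*Hhip* was above *Shh*, at 2.35 ± 1.24 TPM, in 7 of 8 mice, with an adjusted p of 0.0938 (exact permutation) that was no longer under 0.1 when any of 7 single mice was left out. *Shh*, *Boc* at 2.08 ± 1.53 TPM and *Gli3* at 1.93 ± 0.25 TPM did not differ beyond their spread (adjusted p = 0.75 for both neighbouring pairs, exact permutation). *Gli3* was above *Gli2*, at 0.765 ± 0.186 TPM, in 8 of 8 mice (adjusted p = 0.0208, exact permutation), and *Gli2* and *Gli1*, at 0.709 ± 0.428 TPM, did not differ beyond their spread (adjusted p = 0.426, exact permutation). The receptor *Ptch1* was thus listed at a higher TPM than its ligand in all the mice shown in the plot of levels per transcript length.

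**Figure D3:**
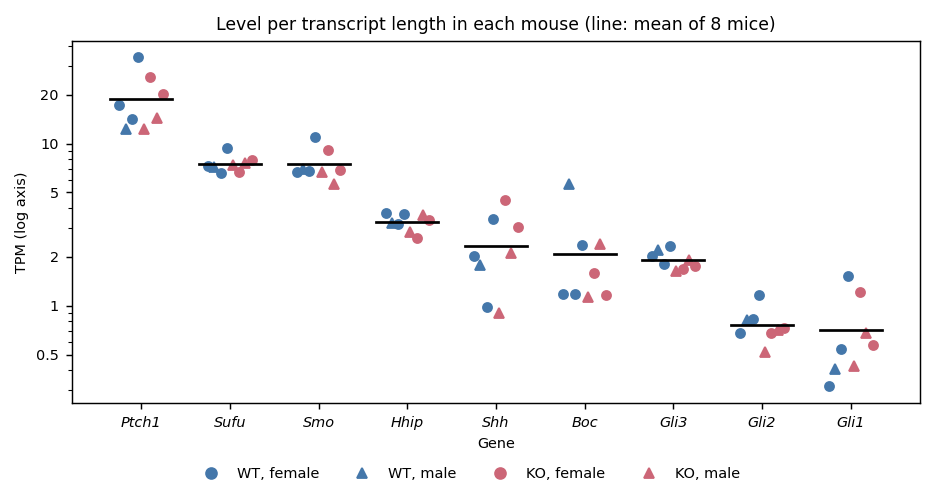
TPM of the 9 Hedgehog genes in each of the 8 mice on a log axis, ordered by mean, with circles for female and triangles for male mice and a line at the mean. *Ptch1*, at a mean of 18.8 TPM, stands above all others, and *Gli2* and *Gli1*, at 0.765 and 0.709 TPM, are the lowest.

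Transcript estimates gave the share of each gene's TPM held by its isoforms. *Ptch1-202* held 68.1% and *Ptch1-201*, whose start is the one shown above, 22.9% of the *Ptch1* TPM. *Sufu-201* held 70.7% and *Sufu-202* 19.7%. *Gli1-201* held 88.8%, and *Gli1-205*, a transcript annotated with a retained intron, 10.9%, with a range over mice from 0.0% to 29.2%. Of *Hhip*, 84.1% was *Hhip-201* and 15.9% the noncoding *Hhip-202*, while a single coding transcript held 92.7% of *Smo*, 97.2% of *Gli2*, 88.8% of *Gli3* and the whole of *Shh* and *Boc*. Of the 11 shares tested, 0 passed between KO and WT (smallest adjusted p = 0.941, two-sided exact permutation, Benjamini-Hochberg over 11). The smallest p this permutation of 4 against 4 mice can give is 0.0286. A change in a single share could therefore not have passed after adjustment over 11.

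A wider list of 45 other pathway genes, in 7 roles, was looked at in the same comparison. Of these, 43 were tested, and 0 had an adjusted p under 0.1, 0 an unadjusted p under 0.05 and 0 genotypes that did not overlap (edgeR, Benjamini-Hochberg). Log2 fold changes were above 0 for 22 and below 0 for 21, with a median of 0.02. The other ligands, *Ihh* and *Dhh*, were not tested: they had 5 to 15 and 4 to 11 estimated counts per mouse. *Disp2*, of the Dispatched family that releases ligand, had the highest mean TPM in its role at 46.6, with a log2 fold change of 0.18 (SE 0.33).

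In the other roles the gene with the highest mean TPM did not pass either. For scale, the median absolute log2 fold change over all genes tested was 0.0947. *Gas1*, a co-receptor, had a log2 fold change of -0.15 (SE 0.15). *Mgrn1*, a ubiquitin ligase that lowers Smoothened at the cell surface, had -0.05 (SE 0.06). *Prkar1a*, the regulatory subunit of the kinase that starts Gli processing, had 0.12 (SE 0.08). *Kif3a*, a motor subunit needed to build the cilium, had 0.04 (SE 0.09), and *Ccnd2*, a cyclin gene among the targets, had -0.11 (SE 0.14). All had an adjusted p of 1.0 (edgeR, Benjamini-Hochberg).

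Because the mice of the 2 genotypes differed in sex, each Hedgehog gene was also compared between the 3 male and 5 female mice, with genotype in the model. *Ptch1* was lower in males: 58.7, 75.9 and 75.5 CPM in WT replicate 2, KO replicate 1 and KO replicate 3 against 96.4, 88.2 and 144 CPM in the female WT mice and 139 and 106 CPM in the female KO mice. Every male mouse was below every female mouse. The log2 fold change, male over female, was -0.78 (SE 0.18, edgeR, adjusted p = 0.081, Benjamini-Hochberg), and a two-sided exact permutation test over all 8 mice gave p = 0.0357. Of the 9 genes, *Ptch1* alone passed, where 3.72% of all genes tested passed and 0.849% passed as lower in males. It was also the 1 gene of the 9 with no overlap, against 7.5% of all genes tested.

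The call for *Ptch1* was lost, with the direction kept, without any one of 4 mice: the adjusted p was 0.131 without WT replicate 1, 0.61 without WT replicate 2, 0.179 without KO replicate 2 and 0.243 without KO replicate 3 (edgeR, Benjamini-Hochberg). The log2 fold change was -0.70 without WT replicate 2, the only WT male, and -0.71 without KO replicate 2.

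*Shh* and *Gli1* also had lower means in males without passing. *Shh* was at 3.11, 2.03 and 3.99 CPM in the males, against 2.26 to 8.95 CPM with a median of 5.93 in the females, a log2 fold change of -0.91 (SE 0.38, edgeR, adjusted p = 0.295, with p = 0.161 in the exact permutation test). The sexes overlapped, since WT replicate 3, a female, was lower than 2 of the males. *Gli1* was at 1.05, 1.05 and 1.42 CPM in the males against 0.953 to 3.75 CPM in the females, a log2 fold change of -1.01 (SE 0.47, edgeR, adjusted p = 0.343). *Boc* went the other way, with a log2 fold change of 0.98 (SE 0.32, edgeR, adjusted p = 0.188, with p = 0.143 in the exact permutation test), and 0.38 without WT replicate 2. *Hhip*, *Smo*, *Sufu*, *Gli2* and *Gli3* had log2 fold changes between -0.34 and -0.01, so that 8 of the 9 genes were below 0, with a median of -0.24 against -0.0028 over all genes tested. Of the 9, 3 had an unadjusted p under 0.05, where 15.9% of all genes tested passed.

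Of the 43 other pathway genes, 2 (4.65%) passed between the sexes, close to the 3.72% of all genes tested. An unadjusted p under 0.05 was found for 11 (25.6%), where 15.9% of all genes tested had one, and 5 (11.6%) had sexes that did not overlap, where 7.5% of all genes tested did. *Scube1*, of the family of secreted proteins that help release ligand, was at 10.9 to 57.7 CPM in males and at most 9.16 CPM in females, a log2 fold change of 2.62 (SE 0.34, edgeR, adjusted p = 0.0183). *Lrp2*, a large endocytic receptor that can bind Sonic hedgehog, was at 0.36 to 0.547 CPM in males and 0.702 to 1.56 CPM in females, a log2 fold change of -1.44 (SE 0.32, edgeR, adjusted p = 0.0767). Without WT replicate 2 or without KO replicate 3, 0 of the 43 passed.

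A further 8 with an unadjusted p under 0.05 had adjusted p between 0.152 and 0.301 (edgeR, Benjamini-Hochberg). Of the ligand release genes, *Disp1* had a log2 fold change of -0.47 (SE 0.14) and *Scube3* -0.68 (SE 0.29). Among genes acting on Smoothened and the cilium, *Gpr161* had -0.47 (SE 0.16), *Evc2* 0.82 (SE 0.31) and *Grk2* 0.36 (SE 0.13), and *Tulp3*, listed with Gli processing, had -0.23 (SE 0.09). The targets *Nkx2-2* and *Bcl2* had -0.40 (SE 0.12) and -0.24 (SE 0.08). The sexes did not overlap for *Scube1*, *Lrp2*, *Disp1*, *Tulp3* and the target *Foxf2*, the last with a log2 fold change of -0.23 (SE 0.15).

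Markers of neighbouring regions, and some of the labelled tissue itself, moved with sex in these mice. Of 6 cortical excitatory markers, 6 were higher in males and 5 passed (edgeR, adjusted p under 0.1), with a summed CPM of 466 to 1777 in males and 41.6 to 346 in females. All 5 cholinergic markers were lower and passed, where 3.72% of all genes tested did. Of 6 GABAergic interneuron markers, 4 were higher and 3 of these passed. All 6 striatal medium spiny neuron markers were lower and 0 passed. All 6 ventral wall markers were lower and 2 passed, with 34.4 to 52.5 summed CPM in males and 43.8 to 211 in females. Of 5 tested hypothalamic peptide genes, 5 were lower and 1 passed, and of 6 ependymal markers 6 were lower and 0 passed. None of these lists had a marker at 0 in every mouse. With 1 library per hemisphere and 3 males, a difference of the sexes in *Ptch1* and a difference in which regions were taken cannot be told apart.

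The effect of genotype was compared between the sexes with an interaction term. Of the 9 genes, 0 passed at an adjusted p under 0.1, where 0.00566% of all genes tested did, and 2 had an unadjusted p under 0.05, where 7.48% of all genes tested did (edgeR, Benjamini-Hochberg). These were *Boc* (edgeR, adjusted p = 0.657), with a KO minus WT log2 difference of -0.18 in females and -1.52 in males, and *Sufu* (edgeR, adjusted p = 0.63), with -0.23 in females and 0.31 in males. The male WT side of this comparison is the single mouse WT replicate 2. For *Ptch1* the KO minus WT difference was 0.18 in females and 0.37 in males. Of the 43 other pathway genes, 0 passed and 3 (6.98%) had an unadjusted p under 0.05, against the same 7.48%: *Scube3*, *Evc2* and *Grk2*, with interaction terms of 1.41, -1.48 and -0.57 on the log2 scale (edgeR, adjusted p = 0.599, 0.621 and 0.63).

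How the genes varied together was measured as correlation of log2 CPM over the 8 mice, with both genotypes and sexes pooled. Of the 36 pairs among the 9 genes, 0 passed at an adjusted p under 0.1 by Pearson's r or by rank (two-sided exact permutation over pairings, Benjamini-Hochberg over 36). The closest pair was *Ptch1* with its fellow target *Gli1*, with r = 0.85 (exact permutation p = 0.0089, adjusted p = 0.239) and rho = 0.74 (exact permutation p = 0.0458, adjusted p = 0.412). Without WT replicates 2 and 4, r was 0.78. *Ptch1* and *Smo* had r = 0.78 and rho = 0.76, and *Shh* and *Ptch1* had r = 0.76 and rho = 0.79 (exact permutation p = 0.0242 and 0.0296 for r and 0.0368 and 0.0279 for rho, adjusted p = 0.239 for r and 0.412 for rho in both pairs). With 2 mice left out, r was 0.64 and 0.66. *Hhip*, also a target, had r = 0.33 with *Ptch1* and -0.08 with *Gli1*.

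The same genes were set against 18 marker lists, as the mean log2 CPM of each list. Of 162 pairs, 11 had an adjusted p under 0.1 by Pearson's r and 0 by rank (exact permutation, Benjamini-Hochberg over 162). The ventral wall list held 3 of the 11: r was 0.89 with *Ptch1*, 0.89 with *Gli1* and 0.83 with *Shh* (adjusted p = 0.0612, 0.098 and 0.099, exact permutation), and rho was 0.81, 0.88 and 0.83 (adjusted p = 0.321, 0.168 and 0.249, exact permutation). Without WT replicate 4 and KO replicate 2, the mice with the most ventral wall and hypothalamic reads, these r were 0.87, 0.68 and 0.57. This list holds *Nkx6-2*, itself among the Hedgehog targets listed here, and shares *Zic1* and *Zic2* with the septal list. Whether its other markers depend on Hedgehog signalling was not tested. *Shh* had r = 0.86 with the septal list (adjusted p = 0.0582, exact permutation), and 0.88 without WT replicate 3 and KO replicate 2.

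**Figure D4:**
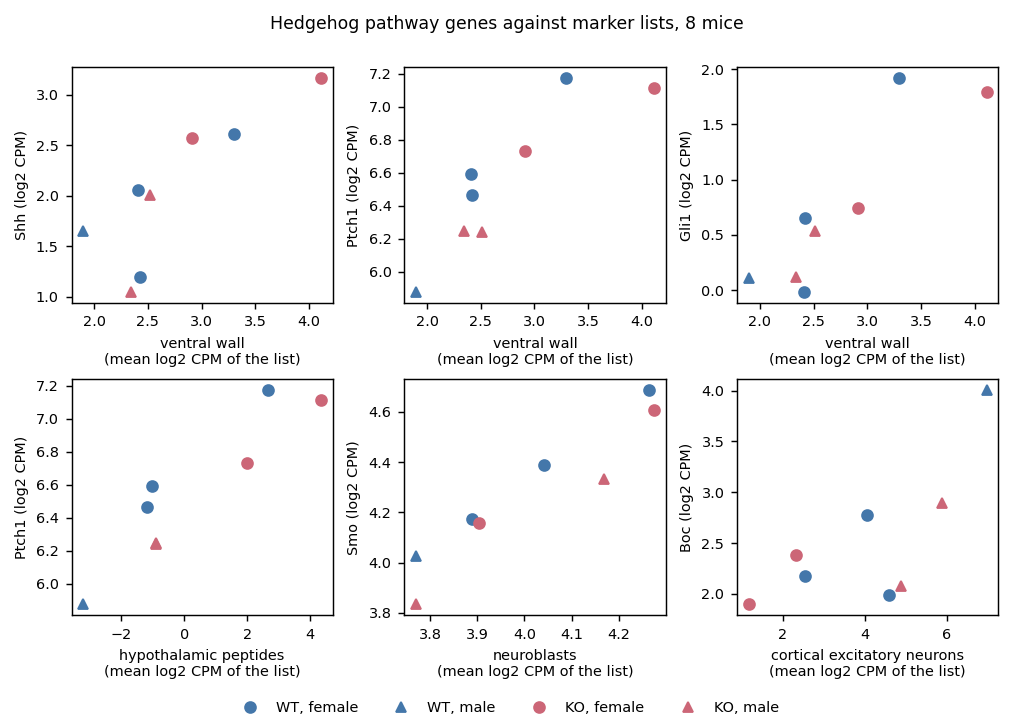
Log2 CPM of *Shh*, *Ptch1*, *Gli1*, *Smo* and *Boc* in each mouse against the mean log2 CPM of a marker list, with circles for female and triangles for male mice. WT replicate 4 and KO replicate 2 hold the highest *Ptch1*, *Gli1* and ventral wall values, and WT replicate 2 the highest *Boc* and cortical values.

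*Ptch1* also went with the hypothalamic peptides (r = 0.93, adjusted p = 0.0605, exact permutation) and the cholinergic neurons (r = 0.83, adjusted p = 0.0637, exact permutation), and *Gli1* with the hypothalamic peptides (r = 0.87, adjusted p = 0.098, exact permutation). The values of rho were 0.79, 0.83 and 0.76, and r without 2 mice was 0.84, 0.97 and 0.61. *Smo* had a different set of lists: neuroblasts (r = 0.95, adjusted p = 0.0582, exact permutation), ependymal cells (r = 0.91, adjusted p = 0.0637, exact permutation) and oligodendrocyte precursors (r = 0.83, adjusted p = 0.099, exact permutation), with rho of 0.93, 0.90 and 0.93, and r of 0.88, 0.82 and 0.82 without 2 mice. *Gli2* with the V-SVZ stem cell markers had r = 0.88 (adjusted p = 0.099, exact permutation) and rho = 0.88, and r was 0.60 without WT replicate 4, 0.88 without WT replicate 3 and 0.25 without both.

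Because *Ptch1* did not overlap between the sexes, the mean of each sex was taken off and mice were exchanged only within a sex, over 720 pairings. The 11 values of r then lay between 0.65, for *Ptch1* with cholinergic neurons, and 0.96, for *Smo* with neuroblasts. Of the 162 pairs, 0 passed (smallest adjusted p = 0.428, exact permutation within sex), and 0 of the 36 pairs among the 9 genes did. With 720 pairings and adjustment over 162 pairs, a single pair of a gene and a list could not have passed. That count therefore does not show whether the correlations were lost. No r was computed within the 5 females or the 3 males alone. With each mouse left out in turn, between 0 and 7 of the 162 pairs passed, with 0 without WT replicate 3, KO replicate 2, KO replicate 3 or KO replicate 4. The r of the 11 pairs changed less: it stayed between 0.72 and 0.97 for 10 of them, and that of *Gli2* with the stem cell markers fell to 0.60.

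**Figure D5:**
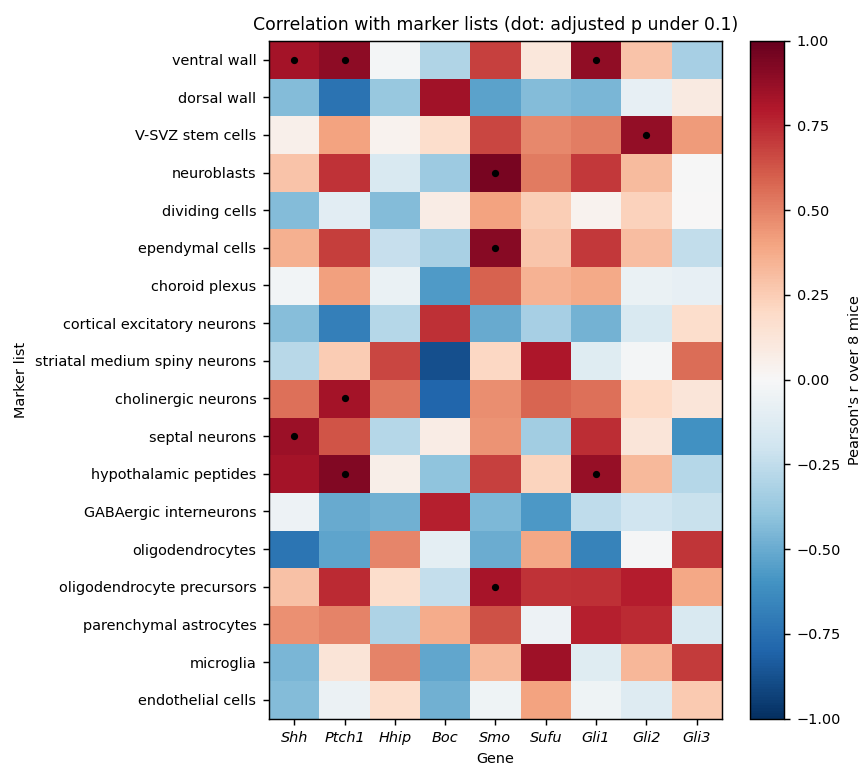
Pearson's r over 8 mice between each Hedgehog gene (columns) and each of 18 marker lists (rows), red above 0 and blue below, with a dot where the adjusted p was under 0.1. The 11 dots lie in the columns of *Shh*, *Ptch1*, *Smo*, *Gli1* and *Gli2*.

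The genes whose log2 CPM was most like that of *Ptch1* over the 8 mice were *Zfp334*, *Slc25a1*, *N4bp1*, *Prr5* and *Fgf1*, with r from 0.997 to 0.968. *Gli1* was in place 407 of 17668 by r with *Ptch1*, *Smo* in place 884 and *Shh* in place 1006. Nearest to *Shh* were *Parp8*, *Gpr153*, *Sos1*, *Adar* and *Rmst*, with r from 0.984 to 0.97, and *Ptch1* was in place 794. Nearest to *Gli1* were *Gm33680*, *Acss3*, *Slc22a4*, *Sox13* and *Carmil1*, with r from 0.969 to 0.96, and *Ptch1* was in place 235. With 8 mice and 17668 genes to rank, these lists are a description of these libraries.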

How the data were processed

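PolyA RNA of the dissected V-SVZ region was sequenced for 4 *Lrig1* KO and 4 WT mice, reads were made with bcl2fastq 2.20, and the authors ran Salmon (version not given in the sources used here) on Gencode M29 and used DESeq2. They deposited a gene table of raw estimated counts, and a file per mouse with Salmon's estimated counts and TPM of every transcript. How transcripts were summed to genes is not given in the sources used here. Animal tags in the column names gave the mouse of each column, with 0 left over. Of the 54307 gene identifiers, 94.8% had a symbol. Gencode M21 of GRCm38 gave transcript names and sums and covered at least 99.2% of each mouse's reads. It is not the authors' build, and RefSeq promoters are on GRCm38.p6. The gene table and the transcript files came from the same libraries.

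Estimated counts were rounded. The test of KO against WT was edgeR's quasi-likelihood test (edgeR 4.0.16, R 4.3.3), with genotype as the only term, after filterByExpr and TMM scaling. Adjusted p are Benjamini-Hochberg values over 17669 genes, with a threshold of 0.1. The standard error is the log2 fold change over the square root of F, and 95% intervals use the t quantile at the degrees of freedom of the test. Sex was tested with genotype in the model, and genotype by sex as an interaction. Log2 CPM used a prior count of 2, and only transcripts with a mean share of 10% or more were tested. Exact permutation tests were two-sided. Simulated counts with 200 genes changed by 2 on the log2 scale were tested first: edgeR found 184 of them for KO against WT with 13 other calls (DESeq2 186 with 85), 178 with 25 for sex and 103 with 15 for the interaction. These counts were drawn for each gene independently, without the differences in region that the real libraries share across genes. The recovery is therefore no measure of what the tests could find in these mice, where *Lrig1*, at -3.80, was not called.

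The 9 genes, the 45 other pathway genes and the 18 marker lists were chosen with earlier results of these data known. Named are the 9 genes, *Lrig1*, the other pathway genes with an unadjusted p under 0.05, no overlap, or the highest mean TPM in their role, the 5 genes most like *Shh*, *Ptch1* and *Gli1*, and correlations with an adjusted p under 0.1 or, with none, the 3 smallest p. The lists closest to *Boc*, and *Foxf2*, whose sexes did not overlap, were named after their values were seen. So were *Slc1a3*, *Nes*, *Thbs4*, *Dcx*, *Dlx1*, *Dlx5*, *Sp9*, *Emx1* and *Pax6*, and the GABAergic and striatal lists between the sexes. A gene among the other pathway genes is not reported here by name. Alternatives were DESeq2 1.42.0 and its size factors, no filter or a minimum of 10 counts, sex or replicate number in the model, transcript sums with length offsets, TPM with a pseudocount of 0.1, and each mouse left out. DESeq2 with sex as a covariate, and correlations with the mean of each sex taken off, were added after seeing the data. The mice are separate animals, each with 1 library from 1 hemisphere. Same-numbered KO and WT mice did not deviate together, with correlations of 0.08, -0.22, -0.23 and 0.27, so the numbers were not taken as pairs.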

Additional observations from a re-analysis of the deposited data

How the results depend on the processing

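For KO against WT, 0 of the 9 Hedgehog genes and 0 of the other pathway genes passed under every one of the 16 alternatives, and the median of the 9 stayed below 0, between -0.17 and -0.02. Over all genes the count was 2 with no filter, 0 with a minimum of 10 counts, 12 with DESeq2, 2 with sex as a covariate, 201 with DESeq2 and sex as a covariate, and 0 to 3 with a mouse left out. With the replicate block it was 0. The paper reported a higher count with DESeq2 at the same threshold than any of these, and the reason was not tested. Log2 fold changes near 0 turned direction: *Smo* was 0.0085 with sex as a covariate and 0.0057 with DESeq2 and sex, and with transcript sums and length offsets *Ptch1* was -0.029 and *Sufu* 0.014. With a mouse left out the ranges were -0.17 to 0.29 for *Ptch1*, -0.85 to 0.0067 for *Boc*, -0.22 to 0.059 for *Smo*, -0.40 to 0.68 for *Gli1*, -0.083 to 0.45 for *Disp2* and -0.023 to 0.11 for *Kif3a*.

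Between the sexes, the count over all genes was 10 with the replicate block and 10 to 1462 with a mouse left out. Of the 9 genes, 0 passed with the replicate block and 0 to 2 with a mouse left out, and of the other pathway genes 0 and 0 to 3. *Gli3* was 0.0034 with the block and -0.072 to 0.14 with a mouse left out, and *Sufu* -0.24 to 0.078. The genotype by sex count was 392 over all genes with no filter, and 0 of the 9. Pairs of the 9 genes past the threshold were 0 to 1 with a mouse left out, and pairs with a list 0 to 7 and, with sex means taken off, 0, while the log2 ratio of *Sufu* to *Smo* was -0.028 to 0.097. Same-numbered mice did not pair, and the block is given only for that reason. The causes of these shifts were not tested.

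Counts were low for *Gli1* (53 to 203), *Shh* (104 to 529) and *Gli2* (150 to 252), with an SE of 0.51, 0.45 and 0.16, so errors did not follow counts alone. With 4 mice per genotype, differences within the intervals given are not excluded. No mouse lay far enough from the rest of its genotype in any of the 9 genes to be singled out by Dixon's test, over 20 groups with the library totals included.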
